A study of Homo sapiens with 3 samples.

Results

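The 10 imprinted genes described here, DLK1, MEG3, PEG3, PEG10, SGCE, MEST, PLAGL1, GNAS, NDN and NNAT, lie outside the imprinted cluster of chromosome band 11p15. They were chosen by their gene symbols and not by a rule on their expression, although earlier results of these data were known. The series held 16149 genes with a value in at least 1 library. Of the 10 genes, 5 (GNAS, PEG10, SGCE, MEST and NNAT) had a value, and 4 of these had a mean of at least 1 RPKM, in which the reads of a gene are scaled to its length and to the counted reads of the library. DLK1, MEG3, PEG3, PLAGL1 and NDN had no value in any library and were taken as 0.

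Imprinted genes are expressed mainly from the chromosome inherited from either the father or the mother. The choice is kept by DNA methylation that is laid down in the germ line at imprinting control regions and protected in the embryo by zinc finger proteins such as ZFP57. These genes lie in clusters in which neighbours share a control region, and several of them are active in the foetal liver, are silenced in the adult liver and can be expressed again in hepatocellular carcinoma (HCC). RPKM sums the reads of both alleles, so the values below are total levels and carry no information on allele, methylation or copy number.

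Messenger RNA was sequenced from 3 cultured human HCC cell populations with 1 library each, all labelled as cell line HCCLM3, grown in DMEM with no treatment named. The parent was the parental line, a mixed population carrying red fluorescent protein, whose metastasis ability was labelled as low although the study describes the line as highly metastatic. Subclone1 was labelled as having higher ability to spread specifically to the lung, and subclone2 as having dual ability for the lung and celiac lymph node. The study derived its subclones from single cells of lung or lymph-node metastases of the parental line grown in nude mice, so each subclone is 1 clone, and a difference from the parent cannot be told apart from the variation between clones.

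The values corresponded to 4488825 counted reads in the parent, 4609696 in subclone1 and 4725150 in subclone2. With 1 library a group no test between cell lines was possible. The 95% intervals given below were exact intervals for the recovered reads and cover counting error only. Of 15 hepatocyte markers, 15 were listed in at least 1 library and 12 had a mean of at least 1 RPKM. KRT8 was at 1614 to 1742 RPKM and KRT18 at 953 to 1075 RPKM. ALB was at 2.46 RPKM in the parent, 49.5 in subclone1 and 68.8 in subclone2, and TF at 5.71, 30.3 and 5.88 RPKM. TTR, APOA1 and SERPINA1 had at most 4 reads in any library. Of 12 fibroblast markers 7 were listed, with summed levels of 28.7, 37.8 and 28.8 RPKM in the parent, subclone1 and subclone2. Within this sum LUM (10.1, 24 and 21 RPKM) and DCN (0.773, 4.42 and 2.75 RPKM) were higher in the subclones, and COL3A1 (4.42, 2.21 and 0.463 RPKM) and COL6A3 (13.0, 6.67 and 4.45 RPKM) lower. Of 8 endothelial markers 5 were listed, with sums of 5.11, 11.9 and 7.60 RPKM. Of 8 leukocyte markers 7 were listed, with sums of 85.0, 127 and 113 RPKM, mostly of CD68, and PTPRC, which marks all leukocytes, was at 0.0836 RPKM (1 read) in the parent and not listed in the subclones. Of 8 neuroendocrine and neural markers 3 were listed, with sums of 0.0910 to 0.608 RPKM. The part of these markers in the results below was not tested.

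The promoters of 4 of these genes are shown because they hold, near a transcript start, the hexamer TGCCGC, which ZFP57 binds at imprinting control regions when its CpG is methylated. Each window holds the 250 bases before a RefSeq transcript start, on the strand of the gene, in GRCh38.p14. Capitals mark the hexamer, read as TGCCGC or as its reverse complement GCGGCA. Where several windows of a gene held the hexamer, the window with the most CpG is printed. The other windows of MEST and PLAGL1 held none, among them the MEST window chr7:130491835-130492084 with 20 CpG. Whether the printed windows lie in an imprinting control region was not tested.

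MEST, chr7:130486097-130486346, plus strand: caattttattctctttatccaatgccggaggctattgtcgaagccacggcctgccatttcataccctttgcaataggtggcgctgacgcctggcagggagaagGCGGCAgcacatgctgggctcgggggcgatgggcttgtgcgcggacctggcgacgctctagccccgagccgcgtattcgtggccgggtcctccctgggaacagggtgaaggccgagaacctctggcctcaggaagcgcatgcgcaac

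PLAGL1, chr6:144008260-144008509, minus strand: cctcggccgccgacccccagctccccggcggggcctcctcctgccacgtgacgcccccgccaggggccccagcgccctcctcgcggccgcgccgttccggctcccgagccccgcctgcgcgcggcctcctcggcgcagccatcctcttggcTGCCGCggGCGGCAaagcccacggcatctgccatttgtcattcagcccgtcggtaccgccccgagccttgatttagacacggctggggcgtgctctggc

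NDN, chr15:23687306-23687555, minus strand: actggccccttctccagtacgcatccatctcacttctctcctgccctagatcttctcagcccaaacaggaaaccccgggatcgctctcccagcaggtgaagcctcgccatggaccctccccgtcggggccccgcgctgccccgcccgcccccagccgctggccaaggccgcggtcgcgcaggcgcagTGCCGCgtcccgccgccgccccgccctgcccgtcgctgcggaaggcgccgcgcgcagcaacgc

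MEG3, chr14:100825858-100826107, plus strand: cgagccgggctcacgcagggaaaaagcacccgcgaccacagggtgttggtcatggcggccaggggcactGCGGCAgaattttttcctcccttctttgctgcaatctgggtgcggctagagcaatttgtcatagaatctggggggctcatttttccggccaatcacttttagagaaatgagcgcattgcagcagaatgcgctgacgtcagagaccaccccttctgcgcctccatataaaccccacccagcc

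The MEST window held 20 CpG and 1 hexamer, the PLAGL1 window 32 CpG and 2 hexamers, the NDN window 30 CpG and 1 hexamer, and the MEG3 window 13 CpG and 1 hexamer. The median over 35116 RefSeq windows of the same length was 11 CpG, and 12.7% of them held the hexamer on either strand. GNAS also had windows in the table used, of which 1, with 19 CpG, held the hexamer and is not printed. Together 5 of the 10 genes had 20 windows, of which 7 held it. The MEG3 windows, starting at 100825858, 100825868 and 100825882, overlap and hold the same hexamer. The windows are thus not independent, and the 7 of 20 is not comparable with the 12.7%. These matches describe the reference sequence. Of the 4 genes printed, MEST was listed in the 3 libraries and PLAGL1, NDN and MEG3 in none.

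PEG10 and SGCE form a divergent pair at 7q21. PEG10 is an imprinted gene derived from a retrotransposon that encodes gag-pol-like proteins, is needed in the placenta and is often raised in HCC. SGCE encodes epsilon-sarcoglycan, a transmembrane protein of the dystrophin-associated complex. Both are expressed from the paternal allele under a control region that they share. In GENCODE release 29 on GRCh38, PEG10 (Entrez 23089) lies on the plus strand at chr7:94656325-94669695 and SGCE (Entrez 8910) on the minus strand at chr7:94524204-94656572, so that their annotated starts overlap by 247 bases.

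PEG10 was found at 23.5 RPKM (95% interval 21.8 to 25.3, 700 reads) in the parent, 12.5 (11.3 to 13.9, 383 reads) in subclone1 and 12.2 (11 to 13.5, 382 reads) in subclone2. Both subclones were thus lower than their parental cells, with intervals that did not overlap that of the parent. The level of PEG10 in subclone1 was 0.533 times (0.469 to 0.604) that of the parent, and in subclone2 0.518 times (0.456 to 0.588). Between the subclones the fold, subclone2 over subclone1, was 0.973 (0.842 to 1.12), an interval that included no difference.

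SGCE went the other way. It was found at 20.5 RPKM (17.5 to 23.9, 164 reads) in the parent, 39.4 (35.2 to 43.9, 324 reads) in subclone1 and 38.8 (34.7 to 43.2, 327 reads) in subclone2. Both subclones were above the parent, again without overlap of the counting intervals. The level of SGCE was 1.92-fold (1.59 to 2.34) higher in subclone1 than in the parent and 1.89-fold (1.57 to 2.30) higher in subclone2. The fold of subclone2 over subclone1 was 0.985 (0.842 to 1.15).

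The ratio of PEG10 to SGCE within a library does not depend on the library total. It was 1.15 (0.968 to 1.37) in the parent, 0.318 (0.274 to 0.370) in subclone1 and 0.314 (0.271 to 0.366) in subclone2. The pair was close to even in the parent, whereas SGCE exceeded PEG10 in each subclone. The ratio in the parent was 3.61 times (2.86 to 4.55) that in subclone1 and 3.65 times (2.90 to 4.61) that in subclone2, and the ratio in subclone1 was 1.01 times (0.816 to 1.25) that in subclone2. The summed level of the pair moved less, from 44.0 RPKM in the parent to 51.9 in subclone1 and 51.0 in subclone2. The exons of the genes overlap by 219 bases on opposite strands, which is 3.27% of the exonic bases of PEG10 and 1.05% of those of SGCE. Whether the counting used strand is not given in the sources used here.

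GNAS was the most abundant of the 10 genes. It encodes the alpha subunit of the stimulatory G protein Gs, which carries signals from hormone receptors to adenylyl cyclase, and its locus also gives rise to paternally and maternally expressed transcripts from other promoters. It lies on the plus strand at chr20:58839718-58911192 (GRCh38, Entrez 2778). GNAS was found at 149 RPKM (144 to 155, 2539 reads) in the parent, 197 (190 to 203, 3430 reads) in subclone1 and 209 (202 to 215, 3730 reads) in subclone2. The level was lowest in the parent and highest in subclone2, and the intervals of the subclones overlapped between 202 and 203 RPKM. The fold over the parent was 1.32 (1.25 to 1.39) in subclone1 and 1.40 (1.33 to 1.47) in subclone2, and the fold of subclone2 over subclone1 was 1.06 (1.01 to 1.11). The deposited value is 1 per gene, so the transcripts of the locus were not separated, and 8.73% of its exonic bases are shared with antisense genes including GNAS-AS1.

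MEST, a paternally expressed gene for a hydrolase-like protein of the mesoderm, differed least between the parent and the subclones. It lies on the plus strand at chr7:130486171-130506465 (GRCh38, Entrez 4232). MEST was found at 11.6 RPKM (9.73 to 13.8, 131 reads) in the parent, 13.2 (11.1 to 15.4, 152 reads) in subclone1 and 13.2 (11.2 to 15.4, 156 reads) in subclone2, with intervals that overlapped throughout. The fold over the parent was 1.13 in both subclones, with intervals of 0.889 to 1.44 in subclone1 and 0.891 to 1.44 in subclone2. The fold of subclone2 over subclone1 was 1.00 (0.796 to 1.26). These 3 intervals included no difference. Of its exonic bases 27.4% are shared on the opposite strand with MESTIT1, COPG2 and a further antisense gene.

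NNAT, which encodes the membrane proteolipid neuronatin, was near the limit of detection. It lies on the plus strand at chr20:37521206-37523693 (GRCh38, Entrez 4826). NNAT was found at 0.166 RPKM (1 read) in the parent, 0.162 (1 read) in subclone1 and 0.316 (2 reads) in subclone2. These counts were below 3 reads, so no fold is given.

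**Figure D1:**
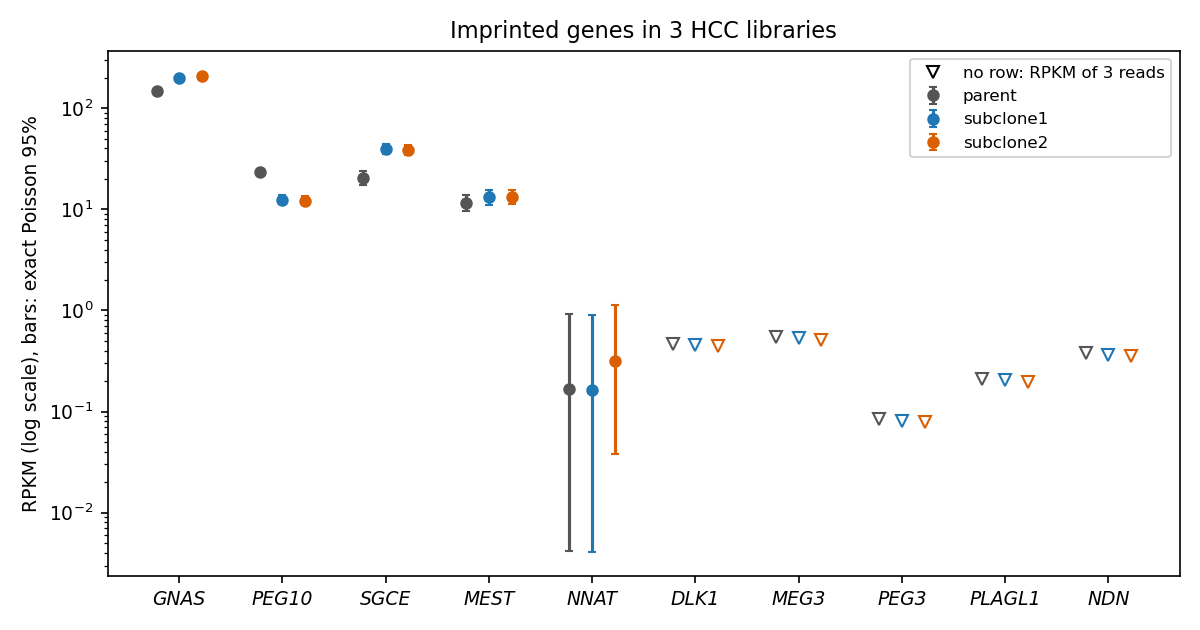
Level of the 10 genes in RPKM (log axis) in the parent, subclone1 and subclone2, with 1 library each. Points are levels with exact Poisson 95% intervals. Open triangles stand for genes with no row and mark the RPKM that 3 reads would give. PEG10 is lower and SGCE higher in both subclones than in the parent, GNAS is the highest at 149 to 209 RPKM, and MEST stays at 11.6 to 13.2.

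The 5 genes without a value comprised DLK1, a membrane ligand-like protein of foetal tissues that restrains adipocyte differentiation, and MEG3, a maternally expressed long non-coding RNA of the same 14q32 cluster. PEG3, a zinc finger protein gene of 19q13, PLAGL1, a zinc finger transcription factor gene of 6q24 that restrains growth, and NDN, a gene of the MAGE family at 15q11, completed the list. In GRCh38, DLK1 (Entrez 8788) lies at chr14:100725705-100738224 and MEG3 (Entrez 55384) at chr14:100779410-100861031 on the plus strand, and PEG3 (Entrez 5178) at chr19:56810077-56840728, PLAGL1 (Entrez 5325) at chr6:143940300-144064599 and NDN (Entrez 4692) at chr15:23685400-23687330 on the minus strand. Because a library lists no gene at 0, the limit for such genes was set at the RPKM that 3 reads would give on the median GENCODE transcript length of the gene. In the parent this limit was 0.464 RPKM for DLK1, 0.542 for MEG3, 0.0837 for PEG3, 0.208 for PLAGL1 and 0.376 for NDN. In subclone1 it was 0.451, 0.528, 0.0815, 0.203 and 0.366 RPKM, and in subclone2 0.440, 0.515, 0.0795, 0.198 and 0.357 RPKM, in the same order. A level above these limits, if the gene was counted at all, was therefore not detected.

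Whether these genes were at 0 or were left out of the authors' counting was not tested. Of 157 genes with symbols that start with NDUF, MRPL, MRPS or POLR, 157 were listed in at least 1 library, and of 12 SNRP genes 11 were. The gene without a row was SNRPN, whose exons hold the SNURF reading frame, and SNURF itself had 2 reads in the parent and none in the subclones. Of the exonic bases of PEG3, 12.9% are shared with ZIM2 on the same strand, and 3.31% of those of PLAGL1 with HYMAI. NDN and DLK1 share none.

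Against all genes, the 4 genes with a mean of at least 1 RPKM stood within 2-fold. The ratio was taken as the log2 of RPKM plus 0.1 in either library, over 11370 genes with a mean of at least 1 RPKM. In subclone1 over the parent, 0 of the 4 were at least 2-fold higher, against 4.90% of all genes, and 0 were at least 2-fold lower, against 1.82%. In subclone2 over the parent, 0 were higher, against 5.33%, and 0 lower, against 2.16%. In subclone2 over subclone1, 0 were higher, against 1.42%, and 0 lower, against 1.39%. At these background shares a count of 0 among 4 genes lies near the background.

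At 1.5-fold, SGCE was higher and PEG10 lower in each subclone. The share of all genes past this limit was 11.6% upward and 7.46% downward in subclone1 over the parent, and 12.7% upward and 7.30% downward in subclone2 over the parent. The log2 ratio of PEG10 was -0.90 in subclone1 and -0.94 in subclone2, at percentile 2.52 of all genes in each. The log2 ratio of SGCE was 0.94 at percentile 94.4 in subclone1 and 0.92 at percentile 93.8 in subclone2. GNAS had log2 ratios of 0.40 and 0.48, at percentiles 81.1 and 83.5, and MEST of 0.17 and 0.18, at percentiles 66.7 and 63.4. The median over the 4 genes was 0.29 in subclone1, 0.33 in subclone2 and -0.01 between the subclones, and over all genes 0.00, 0.04 and 0.03. Both subclones were compared with the same parent library, so their values are given side by side and do not count as 2 independent observations.

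**Figure D2:**
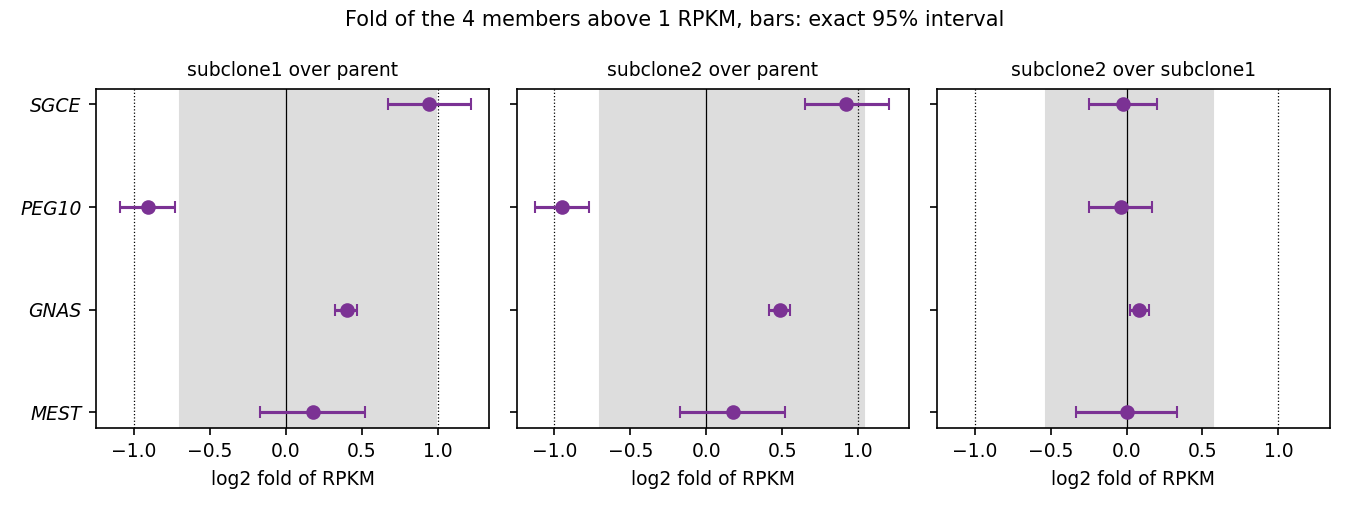
Log2 fold of RPKM for SGCE, PEG10, GNAS and MEST in the 3 comparisons, with exact 95% intervals that cover counting error. The grey band spans the 5th to 95th percentile of all genes tested (-0.70 to 0.99 for subclone1 over parent) and dotted lines mark 2-fold. PEG10 lies below the band in both subclones, and the 4 genes lie near 0 between the subclones.

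The neighbours of PEG10 and SGCE at 7q21 were then examined, since genes of a cluster can share a control region. Of 11 listed neighbours 10 had a value and 8 a mean of at least 1 RPKM, with median log2 ratios of -0.13 in subclone1 and -0.19 in subclone2. CASD1, next to SGCE on its other side and encoding a sialic acid acetyltransferase, was at 9.72 RPKM in the parent, 6.34 in subclone1 and 6.35 in subclone2. It was thus lower in both subclones, at 0.653 times (0.510 to 0.833) and 0.654 times (0.512 to 0.832) the parent. PPP1R9A, which encodes the actin-binding protein neurabin and lies beyond PEG10, was at 1.93, 1.13 and 1.97 RPKM.

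ASB4, a substrate adaptor of a ubiquitin ligase, was at 4.25 RPKM (73 reads) in the parent, 2.44 (43 reads) in subclone1 and 0.719 (13 reads) in subclone2. It was the neighbour with the lowest ratio in subclone2, at 0.169 times (0.0860 to 0.308) the parent. CALCR, the calcitonin receptor gene, was at 0.422 RPKM (7 reads) in the parent, 1.53 (26 reads) in subclone1 and 1.49 (26 reads) in subclone2, past 2-fold in both subclones, and it reached a mean of 1 RPKM only through them. The paraoxonase genes PON2, at 226, 186 and 190 RPKM, and PON3, at 11.9, 13.4 and 13.7 RPKM, TFPI2, a protease inhibitor gene, at 4.81, 5.95 and 3.87 RPKM, and BET1, a vesicle transport gene, at 23.6, 24.0 and 21.4 RPKM, stayed within 1.5-fold of the parent. PON1 had 1 read in the parent, 1 in subclone1 and 3 in subclone2, COL1A2 at most 1 read, and DLX5, a homeobox gene, was not listed. The direction was therefore mixed across the neighbourhood, with SGCE above and CASD1 and PEG10 below the parent at adjacent positions.

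**Figure D3:**
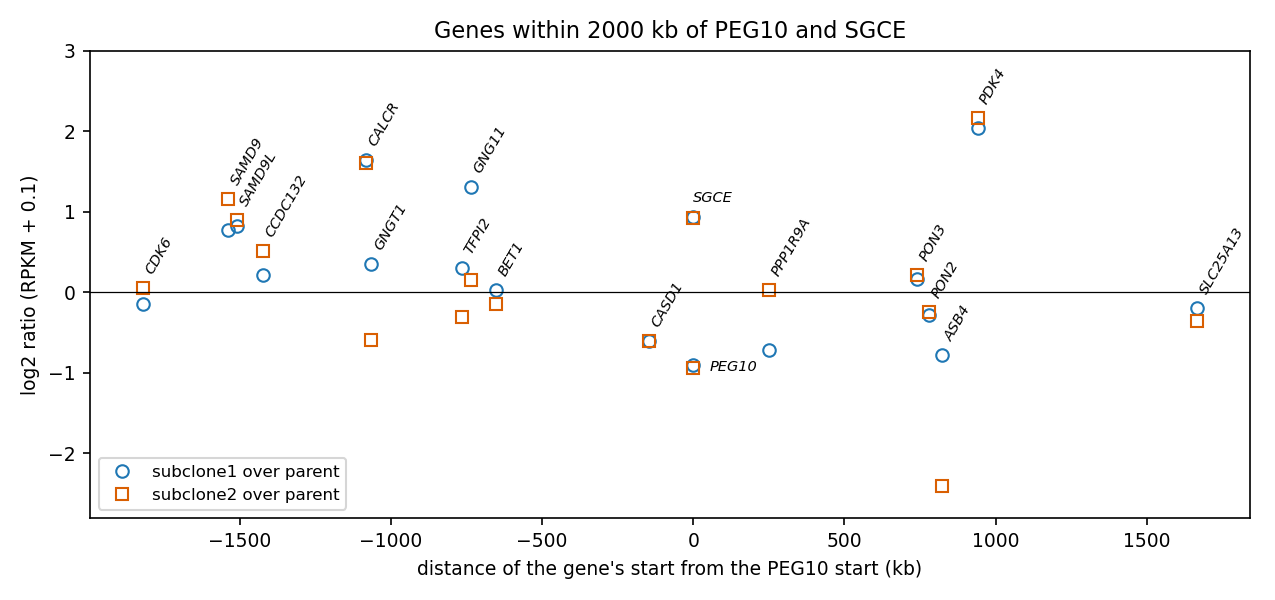
Log2 ratio of RPKM plus 0.1 in each subclone over the parent (vertical axis) against the distance of the start of the gene from the PEG10 start in kilobases (horizontal axis), for genes around PEG10 and SGCE with a mean of at least 1 RPKM. SGCE and PEG10 share the position 0 with ratios of 0.94 and -0.90 in subclone1, and the genes on either side scatter above and below 0.

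Around GNAS at 20q13, 6 of 7 listed neighbours had a value and 4 a mean of at least 1 RPKM. CTSZ, which encodes the lysosomal protease cathepsin Z, was at 67.7 RPKM in the parent, 96.4 in subclone1 and 113 in subclone2, with log2 ratios of 0.51 and 0.74 beside the 0.40 and 0.48 of GNAS. STX16, a syntaxin gene whose deletions can remove the imprint of GNAS, was at 15.4, 15.3 and 14.6 RPKM, TH1L at 51.6, 49.8 and 56.6 RPKM and ATP5E at 28.6, 34.0 and 30.2 RPKM. The difference was found at GNAS and CTSZ and was smaller at the other three. NPEPL1 had 4, 3 and 8 reads and TUBB1 5, 1 and 4 reads in the parent, subclone1 and subclone2, too few to compare.

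At 7q32, COPG2, a coatomer subunit gene that overlaps MEST, was at 14.8, 16.3 and 16.0 RPKM, and TSGA14, now called CEP41, was at 8.28, 8.31 and 10.1 RPKM. The antisense gene MESTIT1 had 2 reads in the parent, 1 in subclone1 and 2 in subclone2. CPA4, an imprinted carboxypeptidase gene near MEST, had 5 reads in the parent, 1 in subclone1 and 3 in subclone2, COPG2IT1 had 1 read, in subclone1, and KLF14, a maternally expressed transcription factor gene, was not listed. At 20q11, BLCAP, in whose intron NNAT lies, was at 21.9, 22.7 and 23.5 RPKM in the parent, subclone1 and subclone2, so that the host gene was read well while NNAT was not. Of the other neighbours there, CTNNBL1 was at 24.9, 23.8 and 23.9 RPKM, TTI1 at 13.4, 14.5 and 16.3 RPKM and RPRD1B at 12.3, 12 and 12.6 RPKM, and VSTM2L had no read in the parent, 5 reads in subclone1 and 3 in subclone2.

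The clusters of the unlisted genes were not empty of reads. At 6q24, HYMAI, which overlaps PLAGL1, had 1 read in the parent, 1 in subclone1 and 0 in subclone2. PHACTR2 was at 5.75, 3.04 and 4.46 RPKM, LTV1, a ribosome assembly factor gene, at 45.3, 27.1 and 30.9 RPKM, and SF3B5, a splicing factor gene, at 36.3, 25.4 and 29.3 RPKM. PHACTR2 and LTV1 were lower in both subclones than in the parent, with folds of 0.528 (0.425 to 0.654) and 0.598 (0.505 to 0.707) in subclone1 and 0.774 (0.640 to 0.936) and 0.683 (0.581 to 0.801) in subclone2. The fold of SF3B5 was 0.700 (0.529 to 0.922) in subclone1 and 0.809 (0.621 to 1.05) in subclone2, where the interval included no difference. The median log2 ratio of the 4 neighbours tested was -0.63 in subclone1 and -0.33 in subclone2. The fourth, UTRN, was at 5.0, 5.63 and 4.97 RPKM.

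At 15q11, IPW, a non-coding RNA of the paternally expressed cluster that holds NDN, was at 7.03 RPKM (142 reads) in the parent, 3.71 (77 reads) in subclone1 and 4.66 (99 reads) in subclone2. It was read in each library although NDN was not listed in any, and it was lower in both subclones. UBE3A, a ubiquitin ligase gene that is imprinted in neurons, was at 28.3, 26.9 and 24.0 RPKM. MKRN3, a paternally expressed zinc finger gene, was at 0.974, 0.474 and 0.463 RPKM, from 6, 3 and 3 reads, too few to compare. ATP10A was at 1.19, 1.91 and 1.54 RPKM. C15orf2, now called NPAP1, had 5, 6 and 4 reads, and SNHG14, PWRN1 and PWRN2, which are non-coding RNAs of the cluster, were not listed.

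At 14q32, RTL1, a paternally expressed retrotransposon-derived gene between DLK1 and DIO3, had 4 reads in the parent, 1 in subclone1 and 0 in subclone2, and DIO3OS had 1 read, in subclone2. BEGAIN had 1 read in each library, and MEG8 and MEG9, non-coding RNAs beside MEG3, were not listed. The outer genes WDR25, at 2.0, 1.84 and 2.49 RPKM, and PPP2R5C, at 21.2, 20.2 and 22.0 RPKM, were near even. Thus the imprinted genes of 14q32 that were examined gave 4 reads or fewer in any library. At 19q13, 2 of 8 neighbours of PEG3 had a value, DUXA at 2.26, 2.07 and 2.34 RPKM and ZNF264 at 0.311, 0.285 and 0.156 RPKM. Whole reads could not be recovered for DUXA, so its values have no interval. The imprinted genes ZIM3, MIMT1 and USP29 of this cluster were not listed.

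**Figure D4:**
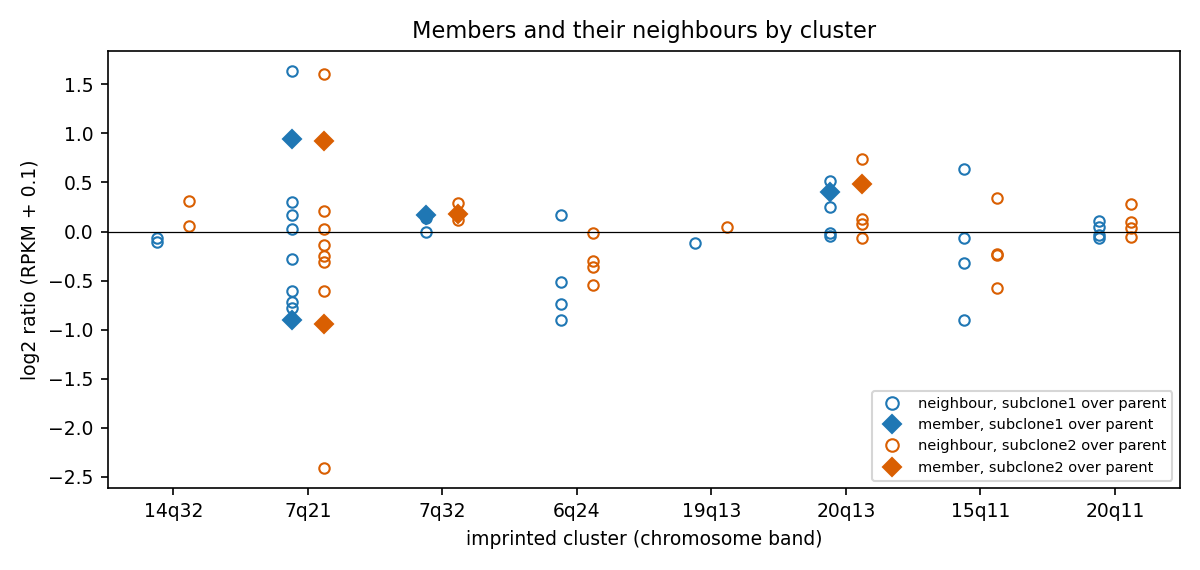
Log2 ratio of RPKM plus 0.1 in each subclone over the parent for the neighbours of the 10 genes with a mean of at least 1 RPKM (circles) and for PEG10, SGCE, MEST and GNAS (diamonds), by chromosome band. Band 7q21 has the widest spread, from -2.41 to 1.64, and the 4 neighbours at 20q11 lie close to 0.

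A further list held 21 genes of other loci that were taken as imprinted, of which 15 had a mean of at least 1 RPKM. Whether each of them is imprinted in these cells was not tested. In subclone1, 0 were at least 2-fold higher, against 4.90% of all genes, and 0 lower, against 1.82%, with a median log2 ratio of 0.12. In subclone2, 1 of the 15 was at least 2-fold higher, against 5.33% of all genes, and 0 were lower, against 2.16%. The median there was 0.20. The gene past 2-fold was NAP1L5, a nucleosome assembly protein gene lying inside HERC3. NAP1L5 was at 0.794 RPKM (7 reads) in the parent, 1.21 (11 reads) in subclone1 and 1.72 (16 reads) in subclone2. It reached a mean of 1 RPKM only through the subclones, where it was higher. Its fold of 2.17 had an interval of 0.845 to 6.24, which included no difference. DIRAS3 and ZRSR1 were not listed. In the 11p15 cluster, 2 of 8 genes tested were at least 2-fold higher and 1 lower in each subclone, where the shares of all genes were 4.90% and 5.33% higher and 1.82% and 2.16% lower in subclone1 and subclone2. These were H19, a maternally expressed non-coding RNA, at 142, 832 and 778 RPKM, CDKN1C, a cell-cycle inhibitor gene, at 10.3, 29 and 22.7 RPKM, and CD81, a tetraspanin gene, at 18.5 RPKM in the parent and not listed in the subclones. The difference in counts between the clusters was not tested.

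The factors that keep imprints showed no 2-fold change among the 12 of 22 genes tested, with median log2 ratios of -0.28 in subclone1 and -0.26 in subclone2. ZFP57 itself was not listed. In the Gs pathway downstream of GNAS, 20 of 23 genes had a mean of at least 1 RPKM, GNAS included, and 0 were at least 2-fold higher or lower in either subclone, with medians of 0.00 and 0.05. In the dystroglycan and sarcoglycan complex, 8 of 15 genes were tested, SGCE included, and 0 changed by 2-fold, with medians of 0.03 and -0.01. Of all genes, 4.90% in subclone1 and 5.33% in subclone2 were at least 2-fold higher, and 1.82% and 2.16% lower. Counts of 0 in lists of this size lie near these shares.

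Among 21 genes derived from retrotransposons, 6 were tested, PEG10 included. In each subclone 1 of the 6 was at least 2-fold higher, against 4.90% of all genes in subclone1 and 5.33% in subclone2. None was at least 2-fold lower, against 1.82% and 2.16%. The higher gene was PNMA2, a gag-like gene, at 0.368 RPKM (4 reads) in the parent, 1.25 (14 reads) in subclone1 and 1.92 (22 reads) in subclone2. PNMA2 had its mean above 1 RPKM only through the subclones, where it was high. Among 14 genes of the MAGE and necdin family and its partners, 9 were tested and 0 changed by 2-fold, a count near the shares of all genes. MAGEL2, a neighbour of NDN of the same family, was not listed.

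For PLAGL1, the list of related factors and of genes that PLAG proteins are known to regulate held 14 genes, of which 9 were tested. Here 2 were at least 2-fold higher in subclone1, against 4.90% of all genes, and 3 in subclone2, against 5.33%. They were H19 and CDKN1C, the same genes as counted above for 11p15, and, in subclone2, CDKN1A, a cell-cycle inhibitor gene at 20, 39.2 and 55.8 RPKM. A list of 15 genes joined DLK1 and Notch pathway genes with others such as FN1, SOX9, PPARG, CEBPA, KRT19 and AFP. Of these 15 genes 11 were tested. In subclone2, 1 was at least 2-fold lower, against 2.16% of all genes, and 0 were higher, against 5.33%. The median log2 ratio was 0.47 in subclone1 and 0.37 in subclone2, and describes this mixed list and not the Notch pathway alone. Against this median HEY1, a Notch target gene, was at least 2-fold lower in subclone2, at 17.2, 11.4 and 8.44 RPKM in the parent, subclone1 and subclone2, whereas HES1, another Notch target gene, was at 37.0, 51.8 and 51.7 RPKM. Of 6 partners of PEG3, 5 were tested and 0 changed by 2-fold, a count near the shares of all genes.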

How the data were processed

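RNA of 3 cultured HCC cell lines was prepared with the Illumina TruSeq kit, and the authors deposited RPKM per gene (reads divided by gene length and by the library total) by Entrez number and symbol, with genes at 0 left out. The build named in the submitters' processing notes is hg19. The aligner, counter, annotation and strand handling are not given in the sources used here. Coordinates and sequences come from GENCODE 29 and RefSeq on GRCh38, another build, and were not converted.

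Whole reads were recovered from the RPKM through the ratios between libraries. In low genes 76.5% to 78.8% of values were whole, and 15824 of 16149 genes, holding 95.8% to 95.9% of the totals, were resolved. The smallest fitting length was used, so reads that share a divisor may be understated. Recovered lengths fell within 10% of a transcript for 79.4% of 1974 genes, against 58.2% with doubled and 14.6% with halved totals.

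Ratios were log2 of RPKM plus 0.1, over genes with a mean of at least 1 RPKM, and 2-fold was the threshold. Exact Poisson, Clopper-Pearson and conditional intervals at 95% used Python 3.11.15 with scipy 1.17.1, numpy 2.4.6 and pandas 2.3.3. The method was tested on simulated data in which the read recovery was given the true length of each gene. The choice among transcript lengths was therefore not tested there. Genes named were the 10 chosen genes, the neighbours in their clusters and, in other lists, genes at least 2-fold changed, at most 4 a list. The genes and lists were chosen with earlier results of these data known. Outside this rule, marker genes, SNRPN, SNURF and genes named as unlisted (DIRAS3, ZRSR1, ZFP57, MAGEL2), and HES1, were chosen after values were seen. FN1, SOX9, PPARG, CEBPA, KRT19 and AFP are named only to describe a list.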

Additional observations from a re-analysis of the deposited data

How the results depend on the processing

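Of 105 log2 ratios of the 5 listed genes under 7 other scalings and pseudocounts, 102 stayed within the counting interval of the reported value, which is wide for NNAT, and 3 moved beyond it. Near 0, in subclone2 over subclone1, the sign turned for PEG10, from -0.04 to 0.09 with ACTB and 0.08 with GAPDH, and for SGCE, from -0.02 to 0.10 and 0.09. The log2 ratio of GNAS moved to 0.26 in subclone1 over parent with ACTB as the scale. In subclone2 over subclone1 it moved to 0.21 with ACTB and to 0.20 with GAPDH. PEG10 ranged from -1.03 to -0.86 in subclone1 and from -0.98 to -0.88 in subclone2, and SGCE from 0.81 to 0.96 and from 0.88 to 0.98. Scaling by ACTB made the count of genes at least 2-fold lower in subclone1 over parent 1 (PEG10). It also moved the median of all genes by -0.13 there. At 1.5-fold, 1 gene was higher and 1 lower in each subclone over the parent.

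No paired analysis was possible because the design holds a lone library for each cell population, and none was left out. The spread between cultures or between clones is unknown. Below 3 reads, as for NNAT, a fold is not informative, and 4 to 26 reads, as for CALCR and PNMA2, leave wide intervals.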

Other observations

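To see how often a divergent pair moves apart as PEG10 and SGCE did, 912 pairs of genes on opposite strands with starts within 1000 bases of each other, both with a mean of at least 1 RPKM, were taken from GENCODE. This definition and the 1.5-fold limit were chosen after the values of PEG10 and SGCE were seen. In subclone1 over the parent, 8 pairs (0.877%), PEG10 and SGCE included, held a gene at least 1.5-fold higher beside a gene at least 1.5-fold lower, and 22 pairs (2.41%) held genes that moved the same way by that much. In subclone2 over the parent, which shares the parent library, the counts were 6 (0.658%), again with PEG10 and SGCE, and 23 (2.52%).

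PDK4, GNG11 and SAMD9 also lie around PEG10 on 7q, outside the list of neighbours, and were chosen after their values were seen. Their starts lie at 940.2, -734.6 and -1538.3 kb from that of PEG10, and that of the listed neighbour CALCR at -1081.6 kb. PDK4, a kinase gene that restrains pyruvate oxidation, was at 0.420 RPKM in the parent, 2.05 in subclone1 and 2.22 in subclone2. It reached a mean of 1 RPKM only through the subclones. GNG11, a G-protein gamma subunit gene, was at 43.0 RPKM in the parent, 106 in subclone1 and 47.9 in subclone2. SAMD9, an antiviral gene, was at 12.9, 22.2 and 28.8 RPKM.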
